A study of Homo sapiens with 12 samples.

Results

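Splicing was compared between MEC1 cells that carry the SF3B1 mutation K700E and MEC1 cells with wild-type (WT) SF3B1, both kept for 6 h in DMSO, the vehicle without drug. MEC1 is an established line of human leukemic B cells (chronic lymphocytic leukemia). The members are the splicing events with 20 or more inclusion plus exclusion reads in each of the 6 DMSO samples, which held for 345874 of the 721551 events in the deposited table. The whole study has 12 samples in 4 groups of 3, and the other 6 received 75 nM of the splicing modulator H3B-8800, which targets the complex that SF3B1 belongs to. The 3 K700E samples carry the base changes c.2098A>G and c.2106G>A in SF3B1. WT replicates 1 and 2 carry neither, and WT replicate 3 carries c.2106G>A alone, so the second change is shared by all K700E samples and 1 WT sample. WT replicate 3 thus differs in genotype from the other WT samples. The labels do not say whether WT replicates 1 and 2, or the 3 K700E samples, come from separate clones or from cultures of 1 clone, and p-values measure only the spread between these samples, part of which may be technical.

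SF3B1 is part of the U2 small nuclear ribonucleoprotein, which binds the branch point, the intron base that attacks the 5′ splice site. The end of the intron, its 3′ splice site, is then taken at an AG downstream of the branch point. K700E lies in the HEAT repeats of SF3B1 and is the most frequent SF3B1 mutation in chronic lymphocytic leukemia. It is known for the use of cryptic AGs a short way upstream of the usual 3′ site, and weaker binding of the partner protein SUGP1 is linked to it.

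These sequences are the 3′ ends of 8 introns whose upstream site rose in K700E, chosen as the largest differences among coding events whose bases were covered by GENCODE transcripts. Each begins 30 bases before the first exon base at the upstream site and ends 6 bases after the start of the exon at the site most used in WT, called the main site here. The pair of AGs in capitals are the upstream and the main 3′ sites, on hg38.
MZB1, chr5:139389415-139389466, minus strand: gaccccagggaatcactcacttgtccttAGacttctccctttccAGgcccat
DLG1, chr3:197065443-197065494, minus strand: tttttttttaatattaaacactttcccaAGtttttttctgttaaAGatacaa
NSMCE4A, chr10:121974076-121974130, minus strand: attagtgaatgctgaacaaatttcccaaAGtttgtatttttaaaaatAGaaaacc
ZDHHC16, chr10:97455609-97455665, plus strand: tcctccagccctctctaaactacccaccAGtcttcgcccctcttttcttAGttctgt
ZNF530, chr19:57605639-57605691, plus strand: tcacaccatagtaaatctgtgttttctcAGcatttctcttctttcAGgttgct
PSME2, chr14:24145891-24145941, minus strand: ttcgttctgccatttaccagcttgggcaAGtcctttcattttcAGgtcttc
FASTKD1, chr2:169531485-169531538, minus strand: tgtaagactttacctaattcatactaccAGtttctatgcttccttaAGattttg
HLTF, chr3:149041663-149041710, minus strand: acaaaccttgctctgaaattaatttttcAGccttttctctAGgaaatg

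Use of the upstream site, in percent of the event's reads, went from a WT mean of 10.4 to a K700E mean of 79.4 in MZB1, from 3.86 to 56.8 in DLG1 and from 0.927 to 52.5 in NSMCE4A. It went from 1.59 to 49 in ZDHHC16, from 1.17 to 48.4 in ZNF530, from 2.26 to 42.2 in PSME2, from 0.597 to 36.9 in FASTKD1 and from 14.1 to 50 in HLTF. Between 12 and 21 bases separate the AGs in these 8 introns. For contrast, 3 upstream AGs at like distances that were not called follow, taken as the coding ones with the most reads and under 10% use in WT.
TMEM259, chr19:1013335-1013388, minus strand: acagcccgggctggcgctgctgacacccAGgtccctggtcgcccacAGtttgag
SLC25A39, chr17:44322523-44322582, minus strand: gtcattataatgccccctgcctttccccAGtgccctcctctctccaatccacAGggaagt
SRSF11, chr1:70249901-70249957, plus strand: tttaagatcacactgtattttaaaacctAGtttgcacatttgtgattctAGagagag
Use of these sites was 2.02 in WT and 2.39 in K700E in TMEM259, and 2.24 and 2.02 in SRSF11. In SLC25A39 it was 9.68 and 18.6, a difference under the 10 points required for a call. Over the 8 bases from 19 to 12 before the upstream exon start, the 8 called introns hold 3 or 4 adenines each, and the 3 others hold 0, 0 and 2. These few introns do not stand for their sets, which differed less. Over all sites that could be read, adenine made up 32.1% of these bases in called sites and 21% in sites not called. Of the sites not called, 18.4% held no adenine there.

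Of the members, 83750 passed the filters on mean level, intron balance and duplicated sites and were tested: 10688 alternative 3′ sites, 8029 alternative 5′ sites, 32663 introns and 32370 exons in 9982 genes. The 6 samples had between 50606876 and 56676172 spliced reads at annotated introns, and the median tested event had between 183 and 224.2 reads per sample. The B cell identity given in the labels was checked on spliced reads as RPM, that is, scaled to the library's total of such reads. MS4A1, which encodes CD20, lay between 469 and 985 RPM and CD22 between 155 and 362. The lowest of the 16 B cell markers listed were VPREB3, between 0.129 and 1.78 RPM, and CD72, between 1.44 and 8.05. CD3D, CD3E, CD3G, CD14 and LYZ were under 1 RPM in every sample, whereas the T and NK list also held TRBC2 at 56.7 to 87 and GNLY at 4.87 to 31.1. The highest myeloid marker was CD68, at 1.36 to 5.3 RPM. In the fibroblast and epithelial list the highest were CDH1 at 4.51 to 14.9, KRT8 at 6.54 to 8.29 and COL1A1 at 2.19 to 6.03 RPM. SF3B1 itself had 1028, 1006 and 1070 RPM in WT and 1155, 1004 and 1035 in K700E, a log2 change of 0.04 ± 0.08 (SE, adjusted p = 0.78, limma). The table holds no allele reads, so the mutation itself was not seen in these data.

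An event was called where limma's test on the log odds of inclusion gave an adjusted p under 0.05 (Benjamini-Hochberg, all tested events together) and the group means differed by at least 10 points. In all, 406 events in 291 named genes were called, 0.485% of those tested, with 283 higher and 123 lower in K700E (0.338% and 0.147%). Leaving out 1 sample at a time gave 197 to 226 higher and 76 to 95 lower events, the fewest without K700E replicate 2. Alternative 3′ sites made up 317 of them, a share of 2.97% of the alternative 3′ sites tested. The share was 0.117% for exons, 0.156% for introns and 0% for alternative 5′ sites. All 406 called events had WT and K700E samples that did not overlap, against 18.3% of all tested events. Averages over all events differed by less than the larger SD between samples: mean exon inclusion was 66.67% ± 0.0708 (SD, n = 3) in WT and 66.65% ± 0.575 in K700E, and mean intron retention was 6.502% ± 0.832 and 6.833% ± 0.144. The exact two-sided permutation p was 1 for exons and 0.9 for introns, where 3 samples against 3 cannot go below 0.1.

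Use rose at 232 alternative 3′ sites in K700E, 2.17% of those tested, and fell at 85, or 0.795%. Site number 1 of each event, which gives the shortest exon, was left out of these counts. With it kept in, use rose at 250 sites and fell at 239. For the 232, the median use was 0.885, 1.09 and 0.86% in the 3 WT samples and 22.7, 23.9 and 25% in the 3 K700E samples. In WT, 187 of the 232 sites were used in under 5% of reads, and in K700E 45 reached 50% or more. The 4 largest differences were in GEN1, SRP14-AS1, MFSD9 and ANKHD1, and the plot of alternative 3′ site use by sample shows the first 16.

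GEN1, which encodes a resolvase of Holliday junctions in recombination, had its upstream site in the untranslated part of the transcript, 17 bases before the main site (the longer exon spans chr2:17759912-17760104). The upstream site was used in 7.22, 8.49 and 11.4% of reads in WT and in 94.78, 94.55 and 97.66% in K700E. The difference in log2 odds was 7.75 ± 0.44 (SE), with an adjusted p of 3.22e-04 (limma), and the event had 97 to 230 reads per sample. SRP14-AS1, a noncoding antisense RNA, used a site 15 bases upstream at 5.26, 12.65 and 7.69% in WT and 91.55, 90.03 and 88.02% in K700E (adjusted p = 5.57e-04, limma). The libraries were stranded, but whether the counting used strand is not given in the sources used here, so reads of SRP14 cannot be told apart with certainty. In both genes the upstream site took over nearly all of the event's reads.

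MFSD9, a predicted membrane transporter, used its site 17 bases upstream at 6.92, 12.5 and 0% in WT and 89.47, 84.21 and 83.1% in K700E. With only 29 to 71 reads per sample, its call (adjusted p = 0.0127, limma) was lost when any 1 K700E sample was left out. ANKHD1, an ankyrin repeat and KH domain protein, used a coding site 9 bases upstream at 4.81, 8.89 and 6.45% in WT and 77.91, 83.15 and 83.38% in K700E. GCC2, a golgin of the trans-Golgi network, used a site 12 bases upstream at 3.45, 0 and 0% in WT and 71.37, 70.41 and 79% in K700E. Both samples at 0, with 59 and 61 reads, allow a use of up to 5.08% and 4.92%. Both of these distances keep the reading frame.

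**Figure D1:**
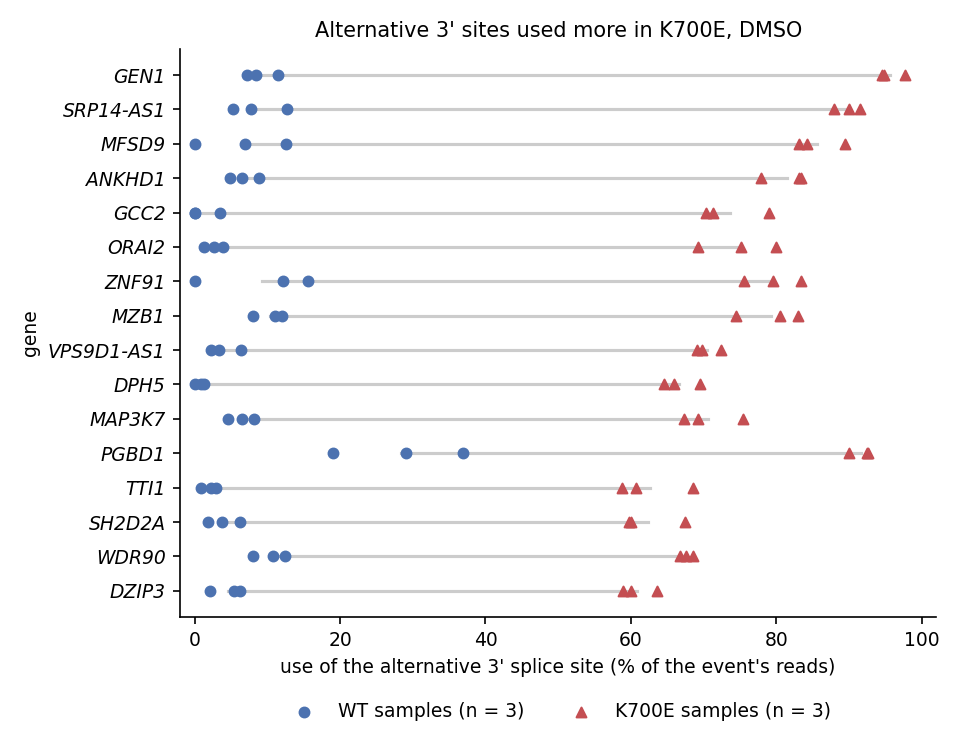
Use of the 16 alternative 3′ sites with the largest called increase, 1 per gene, as percent of the event's reads (horizontal axis), with 1 circle per WT sample, 1 triangle per K700E sample and a grey line between the group means. The genes were chosen for no overlap between groups, so in each the 3 triangles lie to the right of the 3 circles. Means go from 9.04 in WT to 95.7 in K700E in GEN1 at the top and from 4.55 to 60.8 in DZIP3 at the bottom.

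Among genes with a role in B cells or signalling, MZB1, an endoplasmic reticulum protein of B cells that helps immunoglobulin assembly, had the upstream site shown above used at 7.96, 11.09 and 12.03% in WT and 80.59, 74.43 and 83.05% in K700E (adjusted p = 5.69e-04, limma, 131 to 471 reads). ORAI2, a store-operated calcium channel subunit, used a site 23 bases upstream in its untranslated region at 1.26, 2.6 and 3.86% and at 80, 69.23 and 75.13%. MAP3K7 encodes TAK1, a kinase between receptors and NF-kappaB. Its site 20 bases upstream (chr6:90560076-90560234) was used at 6.5, 4.57 and 8.14% in WT and 75.43, 67.38 and 69.25% in K700E. SH2D2A, an adaptor of antigen receptor signalling, used its site 18 bases upstream at 3.76, 1.86 and 6.19% and at 59.78, 60.02 and 67.39%. In each of these genes the lowest K700E sample was far above the highest WT sample, and no overlap was required of the named events.

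DPH5, an enzyme of diphthamide synthesis, moved from 0.85, 0 and 1.28% to 69.55, 64.55 and 65.93% at a site 14 bases upstream, and the WT sample at 0 had 205 reads, which allow up to 1.46%. TTI1, which stabilises the kinases ATM, ATR and mTOR, moved from 2.88, 2.26 and 0.86% to 60.71, 58.75 and 68.55% at 17 bases. The zinc finger gene ZNF91 moved from 15.56, 12.19 and 0% to 75.59, 83.41 and 79.55%, with as few as 24 reads in a sample. Its call was lost in 6 of the 17 alternative settings in which it was tested. VPS9D1-AS1, PGBD1, WDR90 and DZIP3 complete the first 16, with WT means between 4.03 and 28.3% and K700E means between 60.8 and 91.7%.

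The 5 largest decreases of an alternative 3′ site were in GEN1 (82.9 to 4.34%), MFSD9 (91.3 to 14.4%), GCC2 (97 to 26.4%), MTERF2 (78.4 to 9.55%) and SRP14-AS1 (73.4 to 8.91%). MTERF2 encodes a mitochondrial transcription factor. Its site was used at 76.25, 77.14 and 81.67% in WT and 7.61, 9 and 12.04% in K700E (adjusted p = 0.00109, limma). The sites of 1 event add up to 100%, so such pairs are 1 change seen from both ends. The 317 called sites came from 251 events in 246 named genes.

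Genes known as targets of mutant SF3B1 from other studies were taken as a list of 35, of which 33 had a tested event. Of these, 24 had at least 1 called event, or 72.7%, beside 2.92% of all 9982 genes with a tested event. The list was chosen with results of these data known, so its share is a description. Called members included TPP2, a cytosolic peptidase, with the site at chr13:102646280-102646390 used at 0.47, 0.33 and 0.34% in WT and 46.76, 46.12 and 43.69% in K700E. Its log2 odds differed by 7.52 ± 0.26 (SE, adjusted p = 3.90e-05, limma). DYNLL1, a dynein light chain and the most deeply read of these events with 3092 to 4518 reads, moved from 4.07, 3.7 and 4.14% to 38.8, 42.02 and 42.62%. SEPT6, a septin, moved from a mean of 2.4% ± 0.386 (SD, n = 3) to 42% ± 2.33, and ERGIC3, a protein of transport between endoplasmic reticulum and Golgi, from 0.397% ± 0.195 to 29.2% ± 3.93.

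Further called members of the list have roles in heme synthesis and cell survival. TMEM14C, a mitochondrial membrane protein needed for heme synthesis, moved from 1.67, 1.88 and 0.64% to 48.51, 53.72 and 63.02% at a site 20 bases upstream in its untranslated region. BCL2L1, which encodes the apoptosis inhibitor BCL-XL, had the upstream site in use in WT already, at 35.76, 38.93 and 43.41%, and at 73.36, 76.14 and 77.37% in K700E. That last call (adjusted p = 0.0148, limma) was lost in 7 of 18 alternative settings, 5 of which left out 1 sample.

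The 9 list genes with tested events and no call were ABCC5, SERBP1, KANSL3, EI24, ZNF561, PPP2R5A, HINT2, PHGDH and UQCC1. Their largest differences, chosen after the values were seen, ran in size from -2.03 points in UQCC1 through -22.8 points in SERBP1 to 32.3 points for an ABCC5 exon (adjusted p = 0.133, limma). The ABCC5 exon had 44.98, 33.61 and 24.11% in WT and 65.37, 72.17 and 62.14% in K700E, without overlap between the groups.

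The position of the sites was read from the coordinates of each event. The main site could be placed for 230 of the 232 sites that rose, and 205 of them lay upstream of it, 18 downstream, and 7 were the main site itself. Among sites not called, 3464 lay upstream, 1060 downstream and 5728 were the main site itself. Site number 1, which was left out of the test, is the most downstream site of its event. A rise there could not be counted, so the split between upstream and downstream sites depends in part on that filter. The 205 lay a median of 17 bases upstream, with quartiles of 15 and 21, and 184 of them, or 89.8%, lay at 10 to 30 bases. Among 3464 upstream sites that were tested and not called, 38.9% lay at 10 to 30 bases and the median was 28. By distance, sites were called as used more in 3 of 472 at 1 to 9 bases (0.636%), 68 of 373 at 10 to 15 (18.2%), 73 of 553 at 16 to 20 (13.2%), 43 of 604 at 21 to 30 (7.12%), 12 of 613 at 31 to 60 (1.96%) and 6 of 1055 farther away (0.569%). The share called was thus highest from 10 to 15 bases and fell on either side. These shares count tested sites only, and the filter on mean level also uses the K700E samples. A site hardly used in WT could pass it because its use rose in K700E, whereas an unchanged one was dropped. The shares, and the set of sites not called here and below, therefore depend in part on the K700E values. How far this shapes the comparison by distance was not tested. Counted from the site that gives the shortest exon, the median distance of the called sites was 19 bases.

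**Figure D2:**
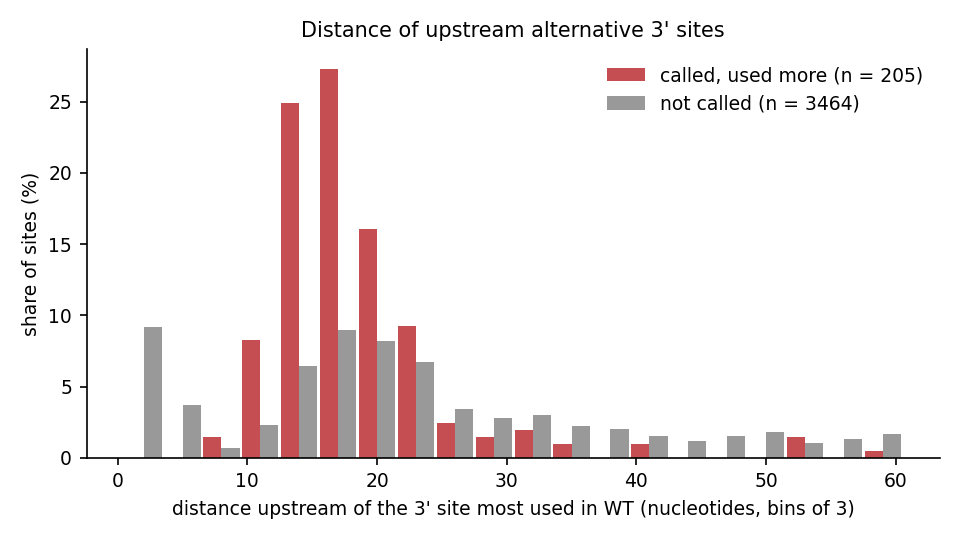
Share of upstream alternative 3′ sites (vertical axis, percent) by their distance from the main site in bins of 3 bases up to 60, for the 205 called sites used more in K700E (red) and the 3464 sites not called (grey), with sites over 60 bases away left out of the drawing. The tallest red bars stand between 10 and 24 bases and are higher than the grey bars there, and smaller red bars lie on either side.

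Of the 205 upstream sites, 26.3% were annotated exon starts in GENCODE, against 38.9% of the upstream sites not called, so most of them join the exon at a position that the annotation does not list. The distance was a multiple of 3 at 85 of the 205, or 41.5%, and at 42.5% of the upstream sites not called. Where the main site overlaps an annotated coding sequence of any gene, 104 of 181 called upstream sites shifted the reading frame, 57.5% beside 56.8% of those not called.

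Bases before the upstream AG could be read for 49 of the 205 called sites and, at 10 to 30 bases upstream, for 343 sites not called, since only sequence inside annotated transcripts was at hand. Adenine made up 32.1% of the bases at positions 19 to 12 before the exon start in the called sites and 21% in the others. At 15 bases before the exon start, 44.9% of called sites and 20.4% of the others held an adenine. The shares were 18.1% and 19.2% at positions 11 to 4, and 22.5% and 21.4% at positions 40 to 20. None of the 49 called sites lacked adenine in the 8 bases from 19 to 12, whereas 18.4% of the others did. The shares with 4 or more adenines in these bases lay closer together, at 12.2% (6 of 49) and 9.33%. Pyrimidines, C and T, made up 54.1% of the same 8 bases in the called sites and 59.1% in the others, and 65.3% and 64% at positions 11 to 4. The sites read are those inside an annotated exon or transcript and need not stand for the rest.

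**Figure D3:**
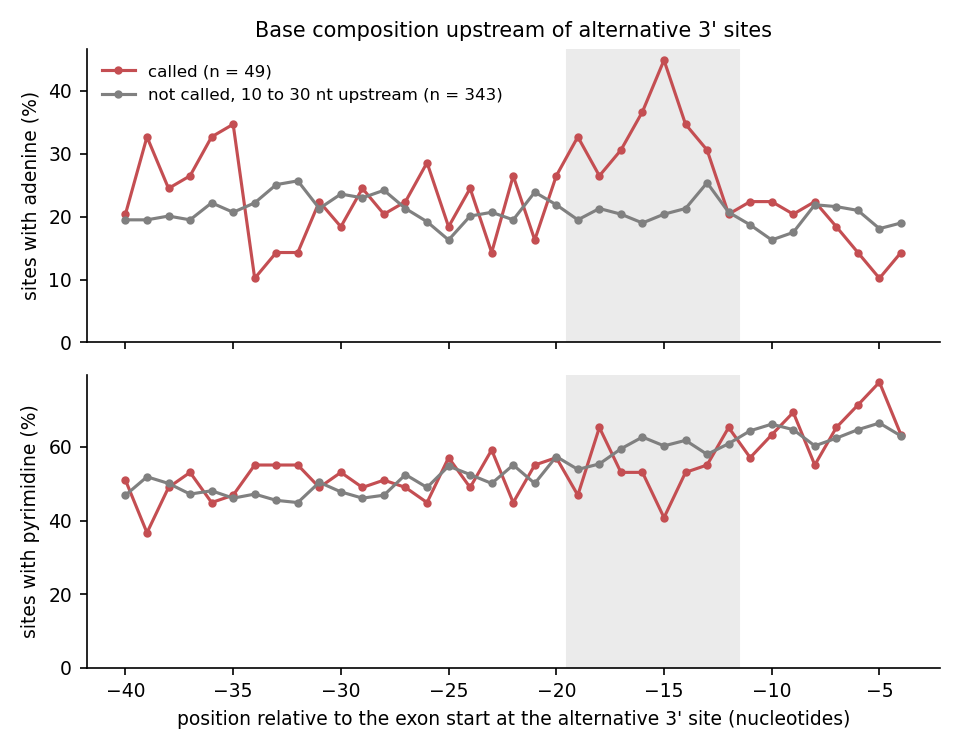
Share of sites with an adenine (upper panel) and with a pyrimidine (lower panel) at each position from 40 to 4 bases before the exon start at the upstream 3′ site, for 49 called sites (red) and 343 sites not called that lie 10 to 30 bases upstream of the main site (grey), with positions 19 to 12 shaded. The red adenine line reaches 44.9% at position 15, where the grey line is at 20.4%, and the 2 lines lie closer together from 11 bases on.

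Inclusion rose for 18 exons, 0.0556% of those tested, and fell for 20, or 0.0618%. Of the 18, 9 matched an annotated exon and 8 lay outside all annotated exons. An exon of COASY, which makes coenzyme A (chr17:42562356-42562487, coding, 132 bases), was included at 11.63, 6.38 and 6.25% in WT and 73.79, 75.76 and 70.8% in K700E (adjusted p = 0.0017, limma). A 144-base exon of TTC3, a ubiquitin ligase, moved from 1.45, 0 and 4.77% to 58.79, 57.63 and 53.42%, on as few as 21 reads in a sample. An exon of BRD9, a subunit of the non-canonical BAF chromatin remodelling complex (chr5:869245-869394, 150 bases), moved from 5.49, 7.63 and 5.36% to 41.69, 50.56 and 47.84% (adjusted p = 0.00128, limma). Within this exon the choice between starts 10 bases apart moved too, and the shorter start fell from a mean of 47% to 2.37%. An unannotated 81-base exon of NOL9, a polynucleotide kinase of ribosomal RNA processing, moved from 1.47, 1.74 and 0.31% to 37.08, 36.23 and 44.27%. CCDC18-AS1 followed, with means of 11.2 and 47.2%, and its call was lost in 5 of the 6 cases of a left-out sample.

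The largest decrease of an exon was in SP140, which encodes a nuclear body protein of lymphoid cells. Its 72-base coding exon was included at 65.77, 63.11 and 73.74% in WT and 29.79, 26.92 and 25.49% in K700E, on 32 to 99 reads (adjusted p = 0.0378, limma). Leaving out any 1 sample ended that call. DLST, a subunit of the oxoglutarate dehydrogenase complex, had a 34-base coding exon at 91.52, 87.02 and 88.74% and at 57.42, 62.89 and 51.49% (adjusted p = 0.00684). DCAF16, a substrate receptor of a ubiquitin ligase, LINC01138 and ZNF142 followed, with decreases of 31.7, 27.9 and 25.4 points, and their calls were lost in 4, 5 and 6 of the 6 cases of a left-out sample. All 5 had WT samples above every K700E sample, which the choice of named events required. Leaving out 1 sample at a time left 10 to 14 exons included more and 5 to 10 included less.

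Retention was called higher for 33 introns, 0.101% of those tested, and lower for 18, or 0.0551%, and for 17 to 20 and 7 to 15 introns when 1 sample at a time was left out. Intron retention is computed from reads across the exon-intron junctions at either end of an intron against spliced reads. In 18 of the 33 introns called higher, the intron ended at the main 3′ site of an event whose upstream site was called as used more. A transcript spliced to such an upstream site also carries the bases on both sides of the main site. The first junction number of these 33 introns had a median log2 ratio of 0.00 between K700E and WT and the second, taken here as the 3′ end, one of 2.14, with 0.5 reads added. Reads were at least 2-fold higher at the second junction and not at the first in 21 of the 33, at both in 8, at the first in 1 and at neither in 3. In the 18 introns called lower the medians were -1.79 and -1.74, and both junctions fell at least 2-fold in 13.

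**Figure D4:**
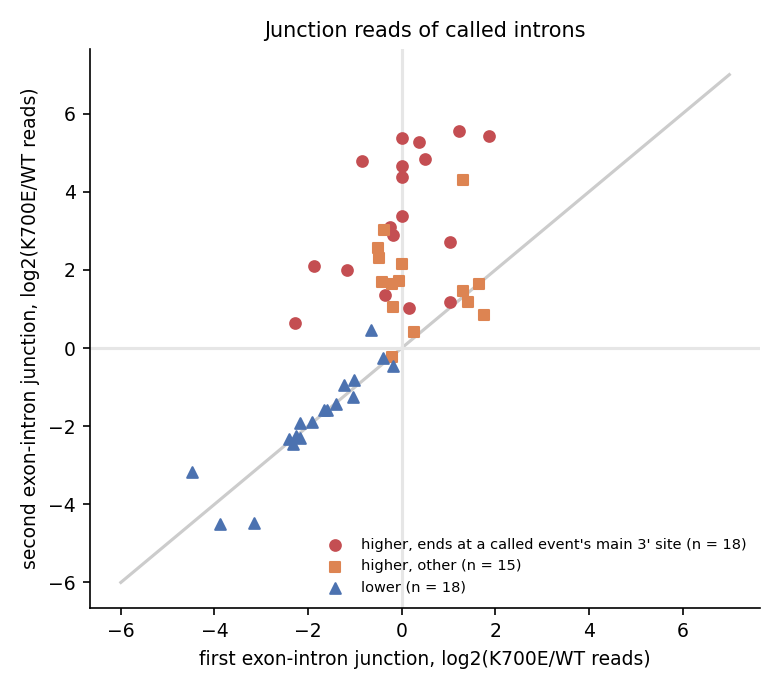
Log2 ratio of mean reads in K700E to WT at the first (horizontal axis) and second (vertical axis) exon-intron junction of each of the 51 called introns, with the diagonal of equal change in grey. Introns called lower (blue triangles) follow the diagonal, whereas most introns called higher (red circles for those that end at the main site of a called event, orange squares for the others) lie above it near 0 on the horizontal axis.

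SH2D2A shows the first pattern: retention was 1.08, 0.53 and 2.12% in WT and 31.83, 34.3 and 41.13% in K700E, with mean reads of 0.667 and 1 at the first junction and 2.33 and 109 at the second. CCDC66, a centrosome and microtubule protein, had the largest difference, with 14.08, 16.82 and 19.13% and 52.58, 54.26 and 60.52%, and its first junction had 15 and 11.7 reads. SLC4A1AP differed, as its reads rose at both ends, from 37.7 to 119 and from 28.3 to 89.7, with retention at 9.76, 14.83 and 16.56% and 45.91, 46 and 47.57%. The calls of CCDC66 and SLC4A1AP were lost when samples were left out, in 6 and 3 of the 6 cases. SHPK and TMEM14C completed the first 5, with first junction reads of 2.33 and 1.67 and of 9.67 and 6.67. How much of the retention value of such introns comes from whole retained introns was not tested.

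Among introns spliced more completely in K700E, SUGP1, the SF3B1 partner in the recognition of branch points, held the intron at chr19:19303848-19305848 at 15.06, 17.16 and 20.45% in WT and at 0.51, 0 and 0.49% in K700E. Mean spliced reads of this intron were 139 and 341. The sample at 0 had 499 reads, which allow up to 0.602%. Its log2 odds fell by 6.01 ± 0.68 (SE, adjusted p = 0.00514, limma). The largest decrease was in RP11-242D8.1, from 63.33, 70.87 and 82.02% to 21.95, 12.04 and 17.28%. DCAF16 retained an intron at 36.02, 40.74 and 42.11% and at 3.93, 3.46 and 2.66% (adjusted p = 5.90e-04, limma). ZBED5 (89.9 to 54.3%), RFNG (41.2 to 6.87%), which modifies Notch receptors, and UBA7 (61.5 to 27.8%), the activating enzyme of the ubiquitin-like ISG15, followed. The RFNG and UBA7 calls were each lost in 5 of 6 cases of a left-out sample, and the RP11-242D8.1 call in 3.

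No alternative 5′ site was called by limma's test on the log odds over the 6 samples, and 601 of the 8029 had an unadjusted p under 0.05. Other settings called a few: 9 used more and 2 used less with limma weights from read numbers, 9 and 4 on percentage points, and 3 and 1 with all 12 samples in the fit. Among 10688 alternative 3′ sites, 2319 had an unadjusted p under 0.05.

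Spliced reads per gene, summed over annotated introns in RPM, were tested in 10398 genes. In all, 194 genes were called, or 1.87%. Spliced reads rose in 110 genes, 1.06%, and fell in 84, or 0.808%, while 2399 had an unadjusted p under 0.05 (limma). The median log2 change of all genes was 0.07, and with it scaled to 0.00, 105 genes rose and 154 fell. These calls depended on single samples: 0 genes were called without WT replicate 1 or without WT replicate 2, 8 without WT replicate 3, 447 without K700E replicate 1, 209 without K700E replicate 2 and 51 without K700E replicate 3. The values below are therefore to be read with the per-sample levels. The sums are lower both where a transcript is scarcer and where reads use a junction that is not annotated, so the change was also computed without introns that overlap called events, a choice made after seeing the data.

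Among the 8 largest decreases, FCER2, the low-affinity IgE receptor CD23, had 338, 321 and 499 RPM in WT and 57.7, 130 and 106 in K700E (log2 change -2.03 ± 0.31 SE, adjusted p = 0.0344, limma). LY6E, an interferon-induced surface protein, had 37.2, 39 and 38.4 RPM and 10.6, 13.5 and 11.9. ITGB3, an integrin subunit, had 69.8, 68.5 and 68.3 RPM and 15.6, 28.4 and 27.6. PRR34-AS1 had 2.33, 1.72 and 2.15 RPM in WT and 0.018, 0.098 and 0 in K700E, SYTL4, a Rab27 effector, 3.16, 4.5 and 5.9 and then 0.313, 0.843 and 0.766, and TBC1D9, SUSD3 and CLMN completed the 8. Of the 8, none held a called event among the introns summed, since leaving those introns out changed no log2 value.

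Higher genes were led by FCRL3, an Fc receptor-like protein of B cells, with 0.582, 0.593 and 0.315 RPM in WT and 37.2, 15.1 and 3.25 in K700E. GBP1, an interferon-induced GTPase, had 0.847, 0.395 and 0.463 RPM and 28.1, 4.04 and 7.56. The 3 K700E samples differed by over 6-fold among themselves in both genes. ADAM28, AC003092.1, B4GALNT1, FAM49A, TFEC and EPHB6 completed the first 8, with log2 changes between 3.0 and 4.11. In none of the 8 did WT and K700E samples overlap, which the choice of the largest called changes favours.

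Genes with a called upstream 3′ site were then compared by reading frame. Spliced reads fell in 22 of 101 tested genes whose coding upstream site shifted the frame, or 21.8%, and rose in 0. They fell in 6 of 75 genes whose site kept the frame, or 8%, and rose in 2. Coding was taken from overlap with an annotated coding sequence of any gene on either strand. The noncoding VPS9D1-AS1, at 70.4% use, is thus among these 75 genes and among the 29 below, without a called change. The background over all genes was 0.808% lower and 1.06% higher. The median log2 change was -0.18 with a frame shift, 0.03 without, and 0.07 over all tested genes. Without introns that overlap called events these medians were -0.18, 0.04 and 0.07. Where the upstream site reached 30% or more in K700E, spliced reads fell in 9 of 31 genes with a shift, at a median of -0.38, and in 1 of 29 genes without, at a median of 0.06.

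**Figure D5:**
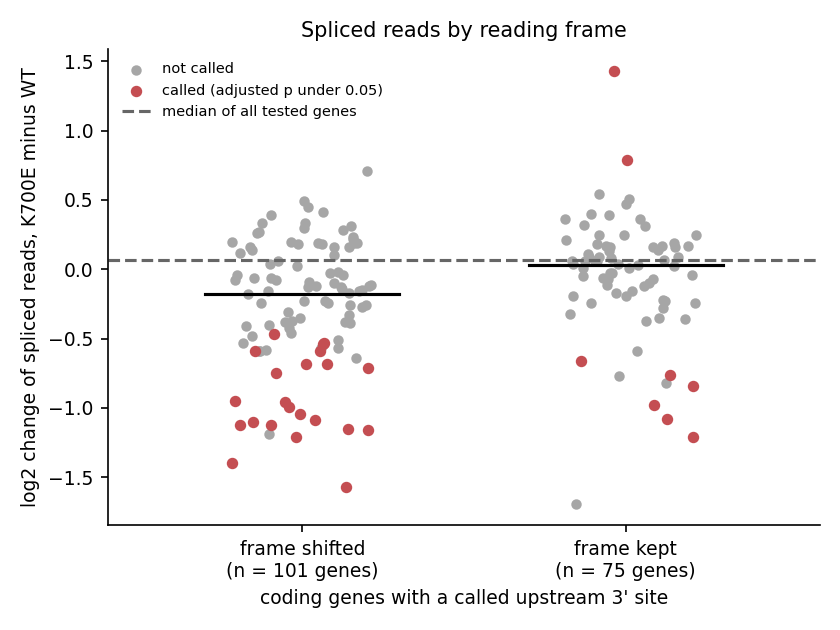
Log2 change of spliced reads per gene, K700E minus WT (vertical axis), for 101 genes whose called coding upstream 3′ site shifts the reading frame and 75 genes whose site keeps it, with 1 point per gene, called genes in red, black lines at each set's median and a dashed line at the median of all tested genes. The black line lies at -0.18 for shifted and 0.03 for kept frames, beside 0.07 for all genes, and 22 and 6 of the red points lie below 0. The set with the frame kept includes the noncoding VPS9D1-AS1, whose site overlaps a coding sequence.

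By gene, NSMCE4A, a subunit of the SMC5/6 complex, had 46.6, 48.7 and 42 RPM in WT and 17.2, 14.9 and 14.1 in K700E (log2 change -1.57 ± 0.11 SE, adjusted p = 0.00502, limma), with a frame shift of 19 bases at 52.5% use. TPP2 had 372, 388 and 392 RPM and 161, 145 and 132, with 14 bases at 45.5% use. DLG1, a scaffold protein of cell polarity, had 161, 151 and 154 RPM and 74.5, 58.5 and 77.3, with 16 bases. MAP3K7 had 95.2, 94.1 and 93.7 RPM and 55.6, 45.9 and 46, with 20 bases. TTI1 had 40.4, 39.8 and 46.9 RPM and 20.3, 20.8 and 18.5, with 17 bases. In each of these genes every K700E sample was below every WT sample, which the choice of genes with called decreases favours.

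Frame shifts were not matched by fewer spliced reads in every gene. MZB1, with a shift of 16 bases at 79.4% use, had 110, 108 and 95.2 RPM in WT and 68.5, 109 and 110 in K700E, and MFSD9, with 17 bases at 85.6%, had 4.57, 5.14 and 4.51 and then 7.17, 5.76 and 7.06. Without introns that overlap called events, the log2 change of MZB1 was -0.44 (adjusted p = 0.198, limma), against -0.15 with them. For MFSD9 it was 0.61 (adjusted p = 0.113, limma), against 0.49. ANKHD1 and GCC2, both with the frame kept at over 70% use, had log2 changes of 0.08 (adjusted p = 0.522) and 0.06 (adjusted p = 0.866) with limma.

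Over the list of mutant SF3B1 targets, spliced reads fell in 7 of 32 tested genes (MAP3K7, TTI1, PPP2R5A, BRD9, DPH5 and TPP2 among them) and rose in 2 (SUGP1 and UQCC1), with a median log2 change of -0.14. Over all tested genes 0.808% fell and 1.06% rose, at a median of 0.07. The list was chosen with results of these data known. Without introns that overlap called events, the DPH5 call was lost (log2 change -0.57, adjusted p = 0.056, against -0.68 and 0.034, limma). PPP2R5A, a regulatory subunit of the phosphatase PP2A that acts on MYC, had 78.4, 75.4 and 73.9 RPM in WT and 39.2, 32.1 and 27.9 in K700E, although none of its events was called. BRD9 had 76.8, 82.3 and 83.1 RPM and 47, 52.9 and 48.5. SUGP1 rose from 62.7, 59.3 and 69 to 114, 109 and 123 RPM (log2 change 0.86 ± 0.09 SE, adjusted p = 0.0129, limma), in the same samples in which its intron was spliced more completely. UQCC1, an assembly factor of respiratory complex III, had 40, 44.1 and 43.4 RPM and 89.3, 77.6 and 66.4.

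Other pathways were described by the same counts. Called spliced reads are to be read beside the 0.808% of all genes that fell and the 1.06% that rose. Called events are to be read beside the 2.92% of all genes that had one. The share was 3.57% for branch point and 3′ splice site recognition, 3.33% for NF-kappaB and Toll-like receptor signalling, 4.17% for B cell receptor signalling, 4.55% for PP2A, MYC, NOTCH and WNT signalling and 4.76% for the BAF complex, in each case from 1 gene, and nothing about these lists is read from shares this near to that of all genes. Of 28 genes with tested events in branch point and 3′ splice site recognition, SUGP1 was the gene with a called event, and it was the gene with called spliced reads, at a list median of 0.01. Of 30 NF-kappaB and Toll-like receptor genes, MAP3K7 had a called event. Spliced reads fell in 2 genes of the list, MAP3K7 among them, and rose in TNFAIP3. TNFAIP3, the NF-kappaB inhibitor A20, had 42.2, 40.4 and 47.4 RPM and 77, 75.5 and 113. Of 24 genes in B cell receptor signalling, SOS1 had a called event. SOS1, a Ras exchange factor, used a site 23 bases upstream at 0% in WT, on 82, 63 and 67 reads that allow up to 3.66, 4.76 and 4.48%, and at 12.5, 8.51 and 11.27% in K700E.

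In heme and iron-sulfur synthesis, 4 of 22 genes had called events, or 18.2% beside 2.92% of all genes. COASY, PPOX and TMEM14C were among them, and COASY and TMEM14C are also in the target list. PPOX, an enzyme of heme synthesis, used a site 32 bases upstream at 2.86, 0 and 0% in WT and 34.67, 40 and 30% in K700E. CPOX, the enzyme before it in the pathway, rose from 127, 137 and 125 RPM to 228, 238 and 205. Of 23 DNA damage and telomere genes, FANCD2 and TTI1 had called events, and spliced reads rose in CDKN1A, the p53 target p21, from 5.66, 5.36 and 6.99 RPM to 19.4, 13.9 and 19.3. In nonsense-mediated decay, 0 of 24 genes had a called event, SMG5 rose by 0.44 in log2 and NBAS fell by 0.76. In PP2A, MYC, NOTCH and WNT signalling, DVL2 of 22 genes had a called event, RBPJ rose by 0.85 and PPP2R5A fell by 1.21. In the BAF complex, BRD9 of 21 genes had called events and was also the gene with fewer spliced reads. Of 21 apoptosis regulators APAF1 and BCL2L1 had called events and no spliced reads were called, at a median of 0.33. B cell markers had 0 called events of 129 and 0 called genes of 15, with a median log2 change of -0.13. Their summed levels were 4151 to 5577 RPM in WT and 5138 to 6753 in K700E, of which CD74 made up 2015 to 2860 and 2964 to 4300. CD37 had 112, 147 and 190 RPM in WT and 79.4, 85 and 80.2 in K700E.

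WT replicate 3 carries c.2106G>A without c.2098A>G, so its comparison with the K700E samples is between genotypes that share the second change. With WT replicate 3 as the only WT sample, the lone sample being assumed to vary like the K700E group, 164 events were called, 115 of them increases and 33 decreases of an alternative 3′ site. A fit with a lone WT sample has less power, so nothing about c.2106G>A is read from its lower count. Each of the 406 called events was also placed on a scale from the other WT samples to the K700E samples. WT replicate 3 had a median position of 0, and 0 events lay past the midpoint. In K700E replicates 1 to 3 the medians were 0.989, 0.99 and 1.02, with 406, 401 and 406 events past it. The events were called with WT replicate 3 counted as WT, which favours such a position. The effect of c.2106G>A itself was not tested.

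The same events were read in the H3B-8800 samples, which are other samples but carry the same line names in the deposited table as the DMSO samples, so the 2 comparisons may share clones. Of the 406 events, 333 had 20 or more reads in all 6 treated samples, 328 of these differed in the same direction, and 210 were called there as well, where 0.674% of 72531 tested events were called. For the 186 readable alternative 3′ sites used more, the median difference was 20.2 points in DMSO and 22.5 points under H3B-8800, and the sign was the same at all 186. For the 14 exons included more, it was 17.9 and 7.54 points, with 3 called under H3B-8800, and for the 18 introns retained less -20.4 and -29.9 points, with 13 called. Whether the genotype difference itself differed between DMSO and H3B-8800 was not tested. The sites in GEN1, SRP14-AS1, ZNF91, MZB1 and WDR90 and the COASY exon were read in DMSO but had under 20 reads in at least 1 treated sample, as did 73 called events in all.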

How the data were processed

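Poly(A) RNA of the 6 DMSO samples (3 WT, 3 K700E) was sequenced as stranded libraries in 3 technical runs each, per the labels' protocols. The submitters' processing notes name cutadapt 2.4 and hg38, while the name of the aligner is not given in the sources used here. Event names and columns are laid out as in vast-tools. The deposited table gives each event's inclusion level in percent, per the file headers, with raw junction reads and corrected inclusion and exclusion reads beside it. Single-run columns, 36 in all, were not used.

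Events needed 20 reads in all 6 samples, a mean level of 1 to 99%, and, for introns, a balance p under 0.05 in at most 3 samples. Site number 1 of alternative site events was left out, since shares sum to 100%. Log2 of (inclusion reads + 0.5) over (exclusion reads + 0.5) entered limma (3.58.1, R 4.3.3) with a mean-read trend and Benjamini-Hochberg adjustment. Genes with a mean of 50 spliced reads were tested as log2 RPM, with 0.5 reads added. The tests were run on simulated data first. Positions and bases came from GENCODE 29 (hg38). Reads have no molecular identifiers, so upper limits, 3 reads at a level of 0, cover counting error only.

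Members and gene lists were chosen with earlier results of these data known. Named events were the called ones with the largest difference and no overlap between groups, 1 per gene and type: 16 alternative 3′ sites used more, 5 used less, 5 exons and 5 introns each way, the first 6 with under 20 reads in an H3B-8800 sample, and every called event of the target list. For spliced reads, the 8 largest changes each way were named. Values of some genes are not reported here.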

Additional observations from a re-analysis of the deposited data

How the results depend on the processing

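Named events and genes were compared with every alternative that could be computed, and the call was kept in 1225 of 1512 of these comparisons. The direction was the same in all of them, but for events it could not differ. An event's value is the difference of group means, and the WT and K700E samples of every called event did not overlap. For all events, higher and lower, the counts were 430 and 292 with read weights and 145 and 63 at a difference of 20 points. Without the filter on mean level, which also uses the K700E samples, 223 were higher and 85 lower. Alternative 3′ sites made up 189 and 68 of these, and 305 of the 406 calls, or 75.1%, were kept. On the scale of percentage points 234 events were lower, and with site number 1 kept in 281 were lower. With WT replicate 3 alone as WT they were 129 and 35. Leaving out 1 sample at a time gave 197 to 226 higher and 76 to 95 lower. Among alternative 3′ sites, 126 increases and 44 decreases were left at 20 points and 115 and 33 with WT replicate 3 alone, and 239 were used less with site 1 kept in, which counts the other end of the same events. Leaving out 1 sample gave 165 to 197 and 63 to 75.

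Exons included more and less numbered 37 and 45 with all 12 samples, 101 and 123 with read weights, 77 and 85 on percentage points, 8 and 10 at 20 points, 7 and 1 with WT replicate 3 alone, and 10 to 14 and 5 to 10 with 1 sample left out. Without the filter on mean level 6 exons were included less. Introns retained more and less numbered 69 and 51 with read weights, 53 and 35 on percentage points, 50 and 28 without the balance filter, 11 and 9 at 20 points, 5 and 1 with WT replicate 3 alone, and 17 to 20 and 7 to 15 with 1 sample left out. With all 12 samples 29 introns were retained less, and without the filter on mean level 11. Alternative 5′ sites used more and less were 3 and 1 with all 12 samples, 9 and 2 with read weights, 9 and 4 on percentage points and 2 and 1 with site 1 kept in. Used more were 1 at a minimum of 10 reads, 1 at 50 reads, 1 without the balance filter, 2 with a pseudocount of 1 read and 2 with WT replicate 3 alone, and leaving out 1 sample gave 0 to 3 and 0 to 2.

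Genes with more and fewer spliced reads were 290 and 193 with all 12 samples and 0 and 0 with WT replicate 3 alone, where 502 genes had an unadjusted p under 0.05 (limma). Median scaling gave 154 with fewer. Leaving out 1 sample gave 0 to 238 and 0 to 209. The cause of these differences was not tested. Replicate numbers in the labels did not pair the samples: deviations of WT and K700E samples correlated between -0.007 and 0.009, and 0 WT samples correlated best with their own number. With the replicate block, 270 events were called, 76 of them lower, with 9 and 4 exons, 17 and 9 introns, and 34 and 18 genes. The fewest reads in a sample were 29 for MFSD9, 24 for ZNF91, 21 for TTC3 and 32 for the SP140 exon.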

Other observations

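Each sample was also compared with the others of its group. Events in which 1 sample stood over 20 points from the other 2, with those within 5 points of each other, numbered 87, 65 and 66 for WT replicates 1 to 3 and 97, 74 and 97 for K700E replicates 1 to 3. For WT replicate 3, the largest such gap was in an exon of ST3GAL3, a sialyltransferase (chr1:43838219-43838311). It was included at 100, 100 and 42.85% in WT and 98.29, 98.65 and 98.63% in K700E, on at least 116 reads. SYNE2, a nesprin of the nuclear envelope, used an alternative 3′ site at 53.62, 54.52 and 100% in WT and 98.9, 79.84 and 95.47% in K700E. In TCTN1, a protein of the ciliary transition zone, the values were 100, 100 and 57.38% and 85.18, 100 and 73.85%.

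Direction differed between DMSO and H3B-8800 at 5 of the 333 called events read in both, and the difference was not tested. UBA7 retained an intron at 61.51% in WT and 27.83% in K700E in DMSO, and at 62.83% and 64.64% under H3B-8800. LMO7 included an exon at 90.95% and 67.23% in DMSO, and at 20.77% and 21.02% under H3B-8800. The others were an exon of CCDC88A and introns of E2F4 and ECT2, with differences of -1.56 to -3.0 points under H3B-8800.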
